A study of Mus musculus with 8 samples.

Results

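The 9 genes described here encode the peptide hormones of the pancreatic islet and the granins stored with them: Ins1, Ins2, Iapp, Gcg, Sst, Ppy, Pyy, Chga and Chgb. They were chosen by name, by a rule that uses no measured value, and all 9 were among the 21434 genes of the table. They were measured by RNA-seq in whole pancreas from 4 Bach2KO and 4 Bach2WT mice, each group with 2 females (mice 1 and 2) and 2 males (mice 3 and 4), aged 18 weeks and left untreated. Bach2KO mice were homozygous for the Cre-excised tm1b(EUCOMM)Wtsi allele of Bach2 on C57BL/6N (a knockout in the whole body), and Bach2WT mice carried the wild-type gene. The study asked whether loss of BACH2, a transcriptional repressor best known from lymphocytes, makes mice prone to autoimmune pancreatitis, so the endocrine genes stand here beside an exocrine and immune question.

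Islets are small clusters of endocrine cells scattered through the exocrine pancreas, which itself consists mostly of acinar cells that make digestive enzymes. Beta cells make insulin (in mice from a pair of genes, Ins1 and Ins2) and release islet amyloid polypeptide (Iapp) with it, and alpha cells make glucagon (Gcg), which raises blood glucose. Delta cells make somatostatin (Sst), which restrains the release of the other hormones. Pancreatic polypeptide (Ppy) comes from the PP cells, and peptide YY (Pyy), its relative, is made by some islet cells and by endocrine cells of the gut. Chromogranin A (Chga) and chromogranin B (Chgb) are acidic proteins of the dense-core granules in which all these hormones are stored. In RNA from whole tissue, fewer cells of a type and less RNA per cell cannot be told apart.

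The genes lie on 7 chromosomes (positions in mm39, the build named in the submitters' processing notes). Ins1 was at chr19:52252735-52253914, Ins2 at chr7:142232393-142297118, Gcg at chr2:62304874-62313994, Sst at chr16:23708323-23709708, Iapp at chr6:142244149-142249687, Chga at chr12:102521228-102531287 and Chgb at chr2:132623198-132636999. Ppy (chr11:101990756-101992145) and Pyy (chr11:101997502-101998658) are neighbours on the minus strand, with 5356 bases between them. The gene model of Ins2 covers far more genome than the 1312 bases of exon that its FPKM values were divided by. Ins1 and Ins2 are close copies and the handling of shared reads is not given in the sources used here, so each value set between these 2 genes, their order and ratio included, is to be taken as uncertain.

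The 250 bases before the start of transcription were examined for short motifs of known regulator families. The part of these motifs in the levels of the 9 genes was not tested. RefSeq promoters (GRCm38.p6) matched 8 of the 9 genes, all but Ins2. The promoters of an insulin gene, of Gcg and of Sst are shown, 1 for each of the 3 main endocrine cell types, at chr19:52264047-52264296 (plus strand), chr2:62483654-62483903 (minus strand) and chr16:23890845-23891094 (minus strand) of GRCm38.p6. Capitals mark CAGNTG (a form of the E-box, read by bHLH factors such as NEUROD1), TAAT (the core of homeodomain sites, such as those of PDX1) and TGACGTCA (the cAMP response element), each on either strand.
Ins1: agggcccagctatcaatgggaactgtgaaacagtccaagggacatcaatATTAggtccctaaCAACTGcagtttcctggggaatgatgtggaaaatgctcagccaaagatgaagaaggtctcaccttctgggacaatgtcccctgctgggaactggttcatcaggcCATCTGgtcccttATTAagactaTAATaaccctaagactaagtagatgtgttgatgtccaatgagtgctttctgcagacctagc
Gcg: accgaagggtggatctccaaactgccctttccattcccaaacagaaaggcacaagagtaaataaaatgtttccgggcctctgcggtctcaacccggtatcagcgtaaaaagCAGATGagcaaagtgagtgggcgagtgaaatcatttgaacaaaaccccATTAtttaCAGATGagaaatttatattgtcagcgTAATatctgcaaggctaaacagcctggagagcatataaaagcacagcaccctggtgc
Sst: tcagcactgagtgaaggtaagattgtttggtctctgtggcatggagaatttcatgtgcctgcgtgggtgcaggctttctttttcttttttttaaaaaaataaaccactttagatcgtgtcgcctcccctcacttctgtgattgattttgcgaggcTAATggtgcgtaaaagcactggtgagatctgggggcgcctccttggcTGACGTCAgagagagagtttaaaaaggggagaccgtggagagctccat
The Ins1 promoter held CAGNTG at 188 and 84 bases before the start, and the Gcg promoter at 139 and 83 bases. The cAMP response element lay 48 bases before the start of Sst, and among the 8 genes it occurred in 1 more, Chgb, at 72 bases. Of all 32851 mouse promoters of that length, 1.55% held TGACGTCA, against 2 of the 8 genes. CAGNTG was found in 5 of the 8 genes and in 44.8% of all promoters, and TAAT in 5 of the 8 genes and in 54.9%. TGANTCA, the core of the AP-1-like sites that BACH proteins bind with small MAF partners, was in none of the 8 genes in this window and in 6.75% of all promoters.

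Ins2 was the most abundant of the 9 transcripts. FPKM here means counts per kilobase of gene, scaled by the authors with a size factor per library. For Ins2 it was 252.8, 171.0, 888.9 and 93.6 in Bach2KO mice 1 to 4. In Bach2WT mice 1 to 4 it was 146.1, 197.6, 87.7 and 1016.7. A male of each genotype, Bach2KO 3 and Bach2WT 4, thus stood far above the other 6 mice, and the remaining male of each genotype was the lowest of its group. Ins1 gave the same order of mice within each genotype at a lower level. Its FPKM was 119.3, 98.5, 565.4 and 55.6 in Bach2KO mice and 92.8, 150.1, 47.9 and 749.0 in Bach2WT mice. Gcg ran from 11.6 (mouse 4) to 64.0 (mouse 3) FPKM in Bach2KO mice, with 52.2 and 32.2 in mice 1 and 2. In Bach2WT mice 1 to 4 Gcg reached 9.15, 25.3, 2.88 and 27.4 FPKM, so that 3 of 4 knockout values lay above every wild-type value.

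**Figure D1:**
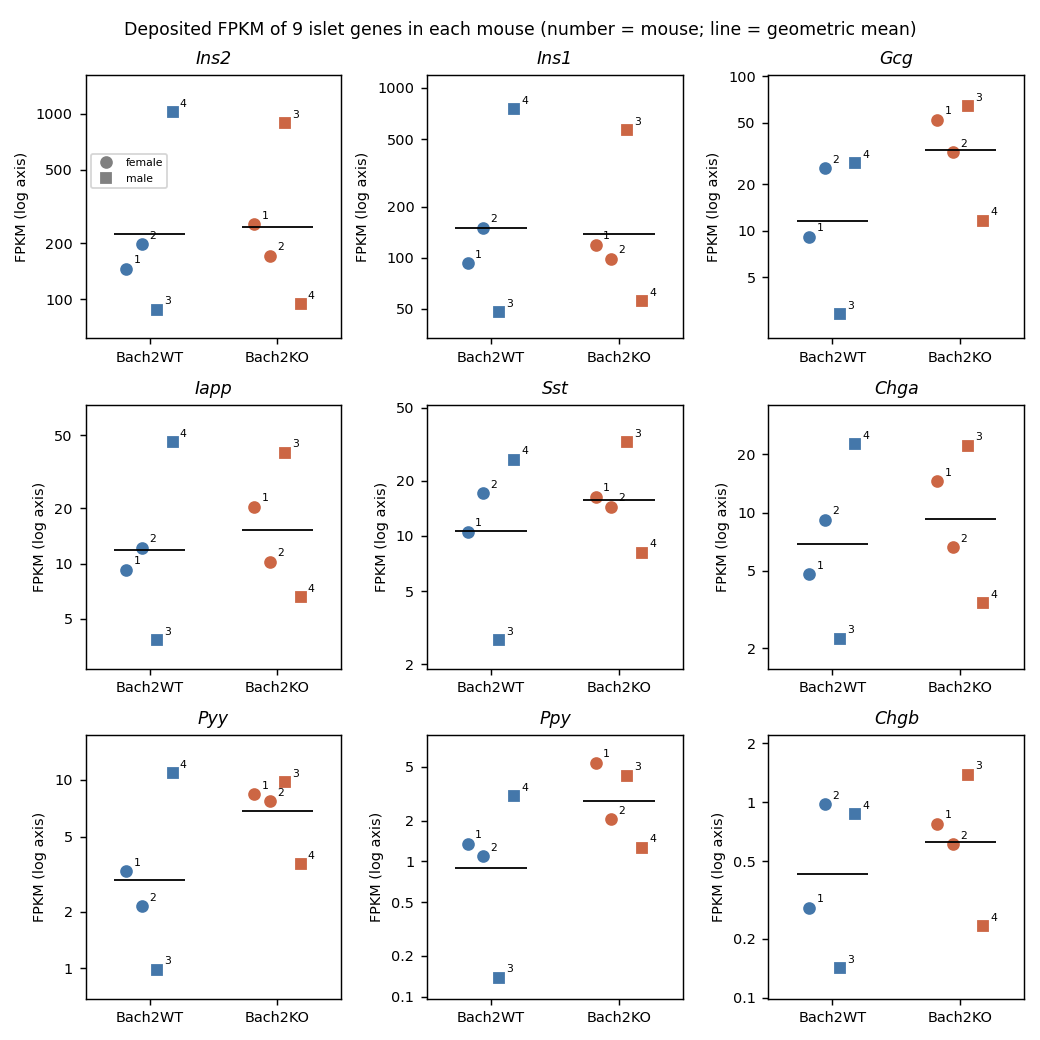
Deposited FPKM (log axis) of the 9 islet genes in each of the 4 Bach2WT (blue) and 4 Bach2KO (orange) mice; numbers give the mouse, circles females, squares males, and the line the geometric mean. Bach2WT mouse 3 is the lowest point in every panel, and the genotypes overlap in every panel.

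Sst was 16.4, 14.4, 32.5 and 8.08 FPKM in Bach2KO mice and 10.6, 17.0, 2.70 and 26.0 FPKM in Bach2WT mice. Pyy was 8.38, 7.71, 9.70 and 3.56 FPKM in Bach2KO mice against 3.28, 2.14, 0.984 and 10.8 FPKM in Bach2WT mice. Apart from wild-type mouse 4, the highest of all 8, every Bach2WT value of Pyy lay below every Bach2KO value. Ppy was 5.37, 2.06, 4.29 and 1.27 FPKM in Bach2KO mice. In Bach2WT mice Ppy was 1.35, 1.10, 0.138 and 3.03 FPKM, and the value of mouse 3 rests on 10 counts. In every library 73.6% to 76.1% of the counts from 1 to 20 were even, so a read pair may have been counted as 2, which was not tested. The other members spanned similar ranges: Iapp 3.83 to 45.8, Chga 2.24 to 22.5 and Chgb 0.141 to 1.38 FPKM. All 9 were lowest in Bach2WT mouse 3. Bach2WT mouse 4 was highest for Ins1, Ins2, Iapp, Chga and Pyy, Bach2KO mouse 3 for Gcg, Sst and Chgb, and Bach2KO mouse 1 for Ppy.

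By mean FPKM over the 8 mice the order was Ins2 (356.8), Ins1 (234.8), Gcg (28.1), Iapp (18.5), Sst (16.0), Chga (10.7), Pyy (5.82), Ppy (2.32) and Chgb (0.659), and Ins2 ranked 45 and Chgb 3822 among the 21434 genes. Neighbours in this order were compared within each mouse on log2 FPKM by a two-sided exact sign-flip permutation test, whose smallest p is 0.00781, and adjusted over the 8 pairs. Ins2 exceeded Ins1 in 8 of 8 mice, 1.63-fold (adjusted p = 0.0156, exact permutation test). Ins1 exceeded Gcg 7.30-fold, Sst exceeded Chga 1.62-fold and Pyy exceeded Ppy 2.86-fold, each in 8 of 8 mice with the same adjusted p. The step from Chga to Pyy (1.77-fold, 6 of 8 mice) had an adjusted p of 0.0417 and that from Ppy to Chgb (3.03-fold, 7 of 8 mice) one of 0.025, both by the exact permutation test. Gcg and Iapp did not differ beyond their spread (1.46-fold, higher in 5 of 8 mice, adjusted p = 0.143, exact permutation test), nor did Iapp and Sst (1.04-fold, 4 of 8 mice, adjusted p = 0.719). Chga, a general granule protein, was thus measured well above Chgb, whose FPKM was the lowest of the set in all mice but Bach2WT 3.

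The table held 72299745 to 172029360 counts per mouse. As in exocrine pancreas, 10 acinar markers alone stood at 469085 to 533448 CPM (counts scaled to a common library total with TMM factors) in Bach2KO mice. In Bach2WT mice they stood at 519974 to 698016 CPM. The TMM factors were 1.05 to 1.18 in Bach2KO mice, 1.10 in Bach2WT 1 and 0.826 to 0.858 in Bach2WT 2 to 4. A factor below 1 raises CPM above the share of raw counts. The 9 islet genes together took 0.0154% (Bach2WT 3) to 0.213% (Bach2KO 3) of the counts, 0.0907% ± 0.0839 in Bach2KO and 0.0726% ± 0.0807 in Bach2WT mice (SD, n = 4 each). Bach2WT 3 and Bach2KO 4, with the 2 lowest shares, had the largest total counts (172029360 and 166529247), and Bach2KO 3, with the highest share, had the smallest (72299745). Bach2WT 1 (0.0381%, total 81648148) and Bach2KO 1 (0.0766%, total 137668139) did not follow that order. The part of depth in the level of the islet genes was not tested. Bach2 itself had only 3 to 16 counts in Bach2KO and 4 to 31 in Bach2WT libraries, too few to check the genotype labels.

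The genotypes were compared with edgeR's quasi-likelihood test over the 12820 genes that passed the filter on low counts, which included all 9 islet genes. None of the 9 passed an adjusted p of 0.05 (Benjamini-Hochberg), and over all tested genes 1 passed as higher in Bach2KO mice (0.00780% in that direction and in either) and 0 as lower (0.00%). Gcg was the only member with an unadjusted p under 0.05. Its level in CPM was 82.2, 49.7, 97.2 and 17.7 in Bach2KO and 14.0, 38.4, 4.34 and 41.4 in Bach2WT mice, or 61.7 ± 35.4 against 24.5 ± 18.2 (SD, n = 4 each). The fitted fold change was 2.52 (95% interval 1.04 to 6.10), a log2 fold change of 1.33 (SE 0.59), with an unadjusted p of 0.0422 and an adjusted p of 0.663. Background for that count is 957 of 12820 genes (7.46%) at an unadjusted p under 0.05, of which 500 (3.90%) were higher and 457 (3.56%) lower in Bach2KO mice, so 1 of 9 is near it.

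Ppy and Pyy, the neighbouring genes of one peptide family, had the next largest estimates. Ppy was 1.68 ± 1.00 CPM in Bach2KO and 0.710 ± 0.606 CPM in Bach2WT mice (SD, n = 4 each), a 2.41-fold difference with an interval from 0.892 to 6.50 (edgeR adjusted p = 0.719). Pyy was 4.78 ± 1.72 against 2.75 ± 2.83 CPM (SD, n = 4 each), 1.75-fold with an interval from 0.762 to 4.03 (edgeR adjusted p = 0.800). For the beta cell products the estimates lay around 0. Ins2 was 473 ± 484 CPM in Bach2KO and 480 ± 580 CPM in Bach2WT mice (SD, n = 4 each), and its log2 fold change was -0.02 (SE 0.74), with an interval from -1.61 to 1.56. As a fold, that interval ran from 0.328 to 2.96. Ins1 (-0.29, SE 0.79) and Iapp (0.15, SE 0.65) were as wide. Sst (0.36, SE 0.52), Chga (0.30, SE 0.62) and Chgb (0.42, SE 0.58) had small positive log2 fold changes with adjusted p-values of 0.932 to 0.957 by edgeR.

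**Figure D2:**
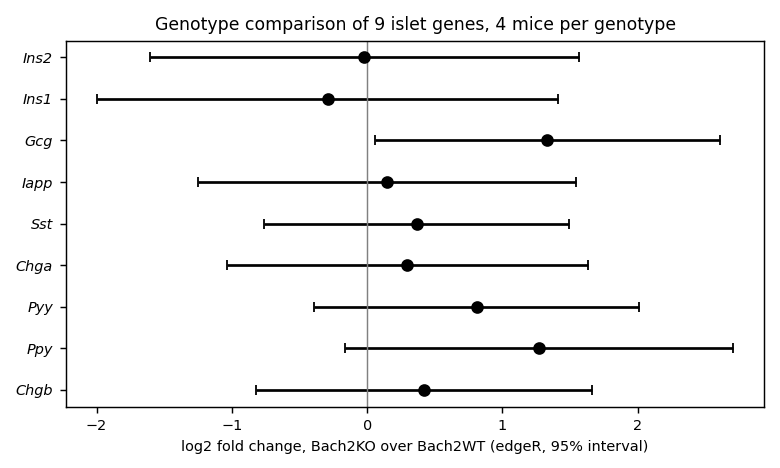
Log2 fold change of Bach2KO over Bach2WT for each of the 9 islet genes, with the 95% interval of the edgeR fit (4 mice per genotype). The interval of Gcg alone lies above 0, from 0.05 to 2.61, and those of the other 8 genes include 0.

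In all, 7 of the 9 genes had a positive log2 fold change, with a median of 0.36, beside 54.7% of all tested genes and a median of 0.05. In none of the 9 did the 4 knockout values separate from the 4 wild-type values. Over all genes 4.49% separated, 2.57% as higher and 1.92% as lower in Bach2KO mice. The spread between mice of 1 genotype was large for these genes. The SD of log2 CPM within genotypes was 1.11 (Pyy) to 1.56 (Ins1), which placed the 9 genes between percentiles 85.3 and 94.8 of all tested genes, and their median was 1.32 against 0.50 for all genes. Between the lowest and the highest mouse the CPM of a member differed 9.86-fold (Chgb) to 40.6-fold (Ppy). With Bach2KO 3 and Bach2WT 4 left out, the 2 mice highest in Ins2 (chosen after their values were seen), the log2 fold changes were 1.38 (SE 0.67) for Gcg, 1.79 (SE 0.73) for Ppy and 1.64 (SE 0.44) for Pyy, with edgeR adjusted p-values of 0.731, 0.708 and 0.592. That of Ins2 was then 0.28 (SE 0.36) and that of Ins1 -0.07 (SE 0.38). Without Bach2WT 4 alone, Ins2 came to 1.30 and Ins1 to 1.12, and without Bach2KO 3 alone the lowest values of the leave-one-out fits were reached, -1.06 and -1.50, so that leaving out 1 mouse turned or enlarged the difference of both insulin genes.

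Sex was the other labelled difference between the mice. Ins1 was higher in males by 1.59 on the log2 scale (SE 0.70, edgeR adjusted p = 0.890) and Ins2 by 1.42 (SE 0.66, edgeR adjusted p = 0.890). Both the highest and the lowest insulin values were those of males, and without Bach2WT 4 the sex difference of Ins1 was 0.51 and that of Ins2 0.40. Of the remaining 7 genes, Iapp (0.88), Chga (0.52), Pyy (0.37) and Sst (0.20) had positive and Gcg (-0.20), Ppy (-0.10) and Chgb (-0.10) negative male minus female log2 fold changes, all with adjusted p of 0.896 or more by edgeR. Ins1 alone had an unadjusted p under 0.05 for sex, 1 of 9, beside 5.29% of all genes, and 0 of 9 passed the adjusted threshold, beside 0.0312%. The genotype difference was also examined within each sex, with 2 mice per group. Mean log2 CPM of Gcg was higher in knockout mice by 1.46 in females and 1.63 in males, that of Ppy by 1.46 and 1.73, and that of Pyy by 1.62 and 0.85. For Ins2 the same differences were 0.33 and -0.03. No member had an unadjusted p under 0.05 for the interaction of genotype and sex (smallest 0.215, for Pyy, adjusted p = 0.909, edgeR), where 6.14% of all genes did and 0.00% passed the adjusted threshold.

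The endocrine genes moved together from mouse to mouse. Iapp, which is released with insulin, placed the 8 mice in the same order as Ins2 (Spearman's rho = 1, permutation p = 4.96e-05) with r = 0.971 (exact permutation p = 2.48e-05) on log2 CPM, and r stayed at 0.962 without the 2 mice farthest from the median of Ins2, Bach2WT 4 and Bach2KO 3. Chga did likewise (rho = 1, r = 0.936, exact permutation p = 1.74e-04, and 0.981 without those mice). Ins1 had r = 0.990 (exact permutation p = 2.73e-04, rho = 0.976, permutation p = 3.97e-04) and 0.935 without them. Sst followed with r = 0.841 (exact permutation p = 0.00521, rho = 0.952, permutation p = 0.00114) and 0.865 without them, and Chgb with r = 0.808 (exact permutation p = 0.0177, rho = 0.881, permutation p = 0.00724) and 0.924 without them. Lower on the list were Pyy (r = 0.753, exact permutation p = 0.0313, rho = 0.833, permutation p = 0.0154), Gcg (r = 0.702, exact permutation p = 0.0526, rho = 0.786, permutation p = 0.0279) and Ppy (r = 0.685, exact permutation p = 0.0596, rho = 0.762, permutation p = 0.0368). Without those 2 mice the r of these genes was 0.669, 0.885 and 0.795. Adjusted over the 8 relations to Ins2, the p of r was 0.0596 for Gcg and Ppy, 0.0417 for Pyy and at most 0.0283 for the others, and the largest adjusted p of rho was 0.0368, for Ppy (exact permutation tests). The 8 libraries include both genotypes, and after subtraction of the genotype means r with Ins2 ran from 0.780 (Ppy) to 0.994 (Ins1). Among the 36 pairs of members r ranged from 0.636 to 0.990 with a median of 0.847, a description of genes that share the same libraries.

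**Figure D3:**
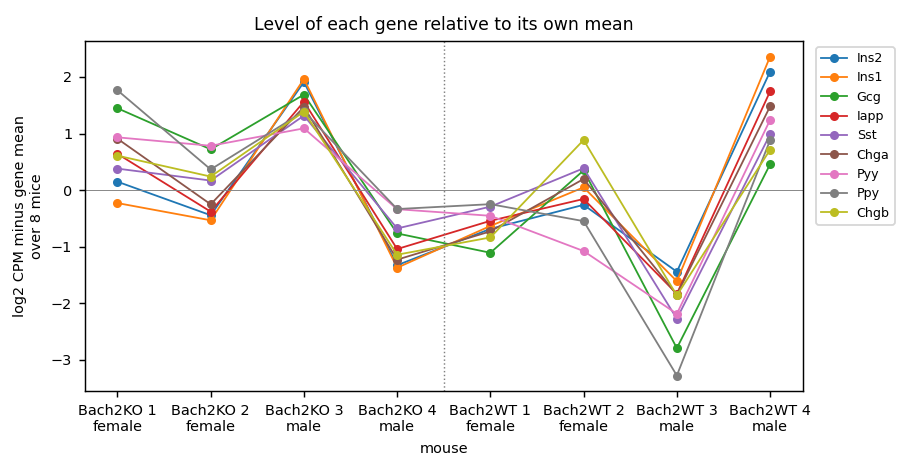
Log2 CPM of each islet gene minus its own mean over the 8 mice, by mouse. All 9 lines peak in Bach2KO 3 or Bach2WT 4 except Ppy, which peaks in Bach2KO 1, and all fall to their lowest point in Bach2WT 3.

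The hormones of the other islet cells were next set against Ins2 in the same mouse, which asks how the makeup of the islet transcripts compared between the genotypes. Gcg amounted to 20.6%, 18.8%, 7.20% and 12.4% of Ins2 FPKM in Bach2KO mice 1 to 4 and to 6.26%, 12.8%, 3.28% and 2.70% in Bach2WT mice 1 to 4. On the log2 scale the mean ratio was 1.40 higher in Bach2KO mice (2.64-fold), with 2 knockout mice above all wild-type mice and the others within their range (p = 0.0857, two-sided exact permutation test, adjusted p = 0.229 over the 8 ratios). The smallest p that 4 against 4 mice allow is 0.0286. Ppy amounted to 2.12%, 1.20%, 0.482% and 1.35% of Ins2 FPKM in Bach2KO and to 0.921%, 0.554%, 0.157% and 0.298% in Bach2WT mice. Its mean ratio was 2.89-fold higher in knockout mice (exact permutation p = 0.0857, adjusted p = 0.229), and 3 of 4 knockout mice lay above every wild-type mouse. Pyy amounted to 3.31%, 4.51%, 1.09% and 3.81% in Bach2KO and to 2.25%, 1.08%, 1.12% and 1.07% in Bach2WT mice, 2.15-fold on average (exact permutation p = 0.0857, adjusted p = 0.229). Bach2KO mouse 3, one of the pair with very high insulin, had the lowest ratio of its group for all 3 hormones.

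**Figure D4:**
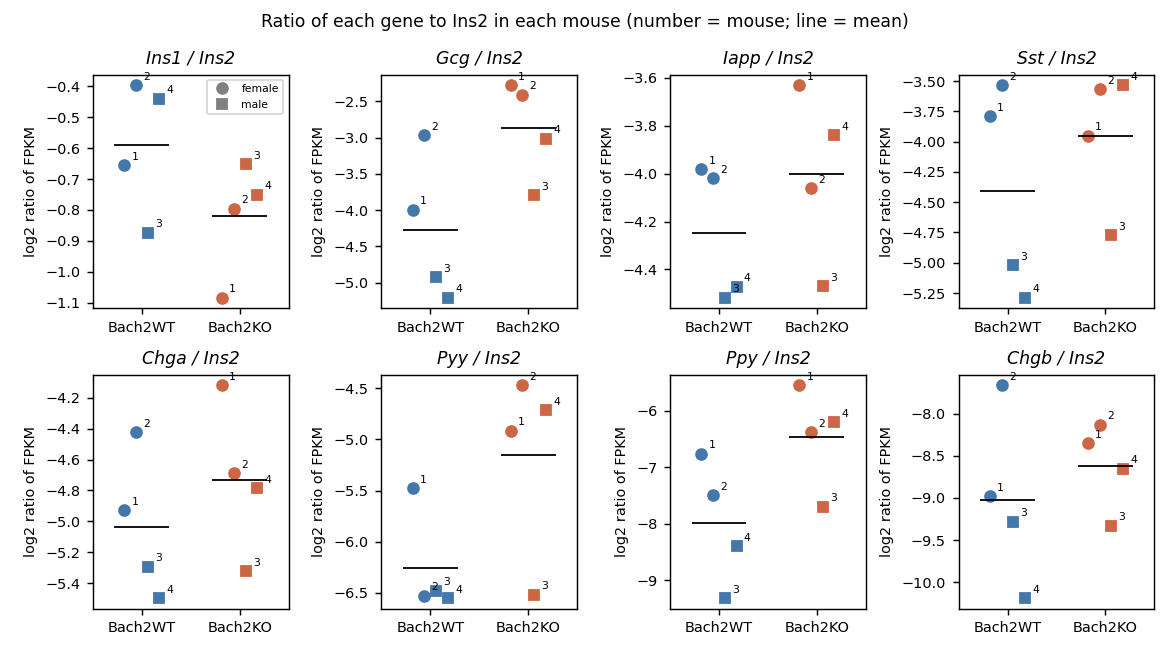
Log2 ratio of the FPKM of 8 islet genes to that of Ins2 in each mouse (numbers; circles females, squares males; line, mean of 4 mice). The Bach2KO means of Gcg, Pyy and Ppy lie 1.40, 1.10 and 1.53 above the Bach2WT means, with overlap of the mice in every panel.

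The same comparison gave smaller values for the remaining genes. The log2 ratio to Ins2 differed between the genotypes by 0.45 for Sst (exact permutation p = 0.343), 0.25 for Iapp (exact permutation p = 0.314), 0.30 for Chga (exact permutation p = 0.429) and 0.41 for Chgb (exact permutation p = 0.543). Ins1, whose ratio to Ins2 was 47.2% to 63.6% in Bach2KO and 54.6% to 76.0% in Bach2WT mice, differed by -0.23 (exact permutation p = 0.200). None of the 8 ratios passed the threshold, which a single ratio could not do after adjustment, since the smallest p gives an adjusted p of 0.229 unless several ratios reach it. Within females the ratio of Gcg was higher by 1.14 and within males by 1.67 on the log2 scale, that of Ppy by 1.16 and 1.90, and that of Pyy by 1.31 and 0.90, with 2 mice per group. Without Bach2KO 3 and Bach2WT 4 the differences were 1.40 for Gcg, 1.81 for Ppy and 1.46 for Pyy. As a share of the summed FPKM of the 9 genes, Gcg took 7.56% ± 3.03 in Bach2KO and 3.19% ± 2.08 in Bach2WT mice, Pyy 1.62% ± 0.718 and 0.733% ± 0.306, and Ppy 0.661% ± 0.342 and 0.250% ± 0.171 (SD, n = 4 each). Ins2 took 51.7% ± 2.05 and 53.2% ± 4.72, and Ins1 29.5% ± 4.29 and 35.3% ± 3.17.

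The genes whose profile over the 8 mice was most like the mean profile of the 9 members were, by Pearson's r of log2 CPM, Pcsk2 (0.988), Resp18 (0.985), Syt13 (0.979), Slc6a17 (0.978), Mctp1 (0.972), Emb (0.966), Scg2 (0.962), Lrrc10b (0.962), Papss2 (0.961) and Ptprn (0.960). Pcsk2 is the prohormone convertase that cuts proglucagon and proinsulin, Scg2 a further granin, and Ptprn a membrane protein of the same granules. Of the 12811 other tested genes, 40 (0.312%) had r above 0.9 and 427 (3.33%) above 0.7, and the median r was -0.025. None of the 10 differed between the genotypes past the threshold (smallest adjusted p = 0.837 by edgeR, for Pcsk2).

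Other genes of the endocrine cell were taken from lists. Of the 14 genes of prohormone processing and secretory granules, all were tested. In Bach2KO mice 11 had positive and 3 negative log2 fold changes, with a median of 0.37, and 8 had r above 0.7 with the members' mean profile. Scg5, a chaperone of PCSK2, had the largest estimate (1.28, edgeR adjusted p = 0.723), followed by Pcsk1n, which encodes an inhibitor of PCSK1 (1.04, edgeR adjusted p = 0.768). Pcsk2 had 0.79 and Pcsk1, the other convertase, -0.03. Ptprn2 was the single gene of the list at an unadjusted p under 0.05, in the opposite direction (-0.55, edgeR adjusted p = 0.641), and its r with the members was -0.39. Of 16 islet transcription factors 8 passed the filter, 6 with positive and 2 with negative log2 fold changes and a median of 0.18. Nkx2-2, needed for several islet cell types, had 1.11 against 0.489 CPM (log2 fold change 1.18, edgeR adjusted p = 0.636), with an unadjusted p under 0.05. Mafa (0.01) and Nkx6-1 (0.14), factors of mature beta cells, and Pdx1 (-0.47), which acinar cells also express, had adjusted p-values of at least 0.844 by edgeR.

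The 10 genes of glucose sensing in beta cells were all tested, with 7 positive and 3 negative log2 fold changes, a median of 0.11 and a median r with the members of 0.784. Ucn3 (0.28), Slc2a2, which encodes the GLUT2 glucose transporter (0.24), G6pc2 (0.16) and Abcc8, a subunit of the ATP-sensitive potassium channel (0.07), all had an edgeR adjusted p of 0.962 or more. The incretin receptors Gipr (1.22, edgeR adjusted p = 0.768) and Glp1r (-0.38, edgeR adjusted p = 0.745) had the smallest p-values of this list, none of them under 0.05 before adjustment. Of 16 genes for receptors of the islet hormones 6 were tested, among them Insr, the insulin receptor (0.53, edgeR adjusted p = 0.771), and Sstr2, a somatostatin receptor (0.29, edgeR adjusted p = 0.940). Ramp1, which with the calcitonin receptor forms an amylin receptor, was at 17.2 against 23.5 CPM (-0.44, edgeR adjusted p = 0.649). It was the one gene of this list at an unadjusted p under 0.05. Its relative Ramp2 had 0.90 (edgeR adjusted p = 0.757). The calcitonin receptor gene Calcr was not among the genes of the table. The glucagon receptor Gcgr had 0 to 26 counts and was not tested. No gene of these 4 lists passed the adjusted threshold.

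**Figure D5:**
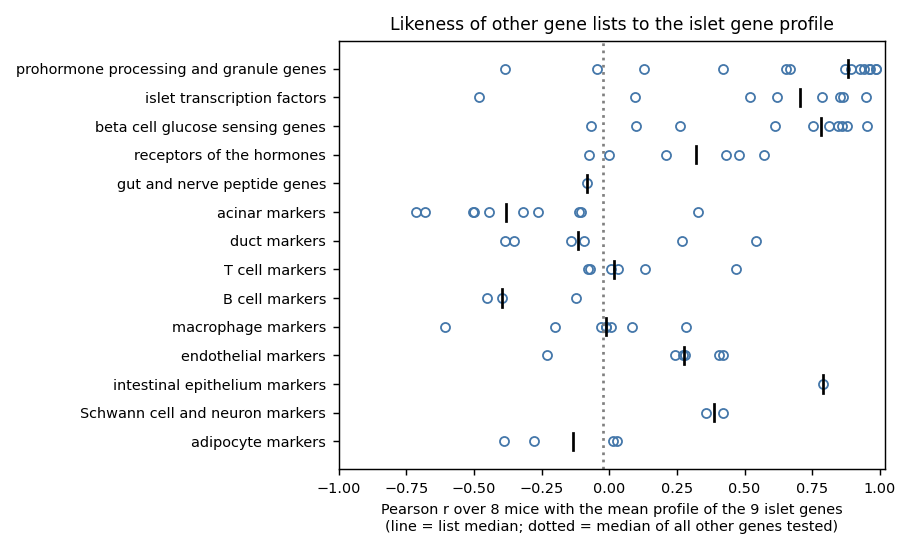
Pearson's r over the 8 mice between each tested gene (circles) of 14 lists and the mean profile of the 9 islet genes, with the list median (bar) and the median of all other tested genes (dotted line, -0.025). The medians of prohormone processing genes (0.884), beta cell glucose sensing genes (0.784) and islet transcription factors (0.704) lie above those of the other lists of more than 1 gene, and the median of acinar markers (-0.381) is below the dotted line.

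Pyy and Sst are also made by endocrine cells of the gut, and Sst by neurons, so markers of other tissues were read beside them. Of 6 markers of intestinal epithelium only Vil1 passed the filter (log2 fold change 0.20, r with the members 0.790). The summed level of the listed intestinal genes was 0.0207 to 0.726 CPM in Bach2KO and 0.0666 to 0.374 CPM in Bach2WT mice, against 2.30 to 6.22 and 0.627 to 6.90 CPM for Pyy. Muc2, the mucin of goblet cells, had 4 and 14 counts in Bach2KO mice 1 and 3 and 0 in the other 6 mice. Of 12 genes for gut and nerve peptides only Gal, which encodes galanin, passed the filter. It was at 78.2 CPM in Bach2KO and 137 CPM in Bach2WT mice (log2 fold change -0.81, SE 0.26, edgeR adjusted p = 0.531), opposite in sign to Gcg, Ppy and Pyy, and its r with the members was -0.08. Of 6 Schwann cell and neuron markers 2 were tested, with positive log2 fold changes, and the 6 listed genes summed to 0.350 to 0.859 CPM in Bach2KO and 0.125 to 0.360 CPM in Bach2WT mice. Their part in the levels of Pyy and Ppy was not tested.

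Markers of the other cells of the pancreas were read in the same way. Of 10 acinar markers 9 had negative log2 fold changes in Bach2KO mice (median -0.31). Among them 4 had an unadjusted p under 0.05, such as Cpa1 (-0.53, edgeR adjusted p = 0.513) and Prss2 (-0.57, edgeR adjusted p = 0.531), and none passed the adjusted threshold. These fold changes rest on TMM factors of 1.05 to 1.18 in Bach2KO mice, 1.10 in Bach2WT 1 and 0.826 to 0.858 in Bach2WT 2 to 4. The part of the factors in the acinar values was not tested. Of 8 macrophage markers 5 were positive (median 0.40), among them Lyz2 (1.15, edgeR adjusted p = 0.523) and C1qb (0.95, edgeR adjusted p = 0.534), and 3 negative, among them C1qa, the partner chain of C1qb (-0.64, edgeR adjusted p = 0.67), with a summed 21.5 to 32.1 CPM in Bach2KO and 15.9 to 28.9 CPM in Bach2WT mice. Of 6 endothelial markers 5 were positive (median 0.55), with Cdh5 at 1.07 (edgeR adjusted p = 0.531), and their sum was 29.6 to 62.8 CPM against 20.4 to 33.6 CPM. The 6 tested T cell markers were all positive (median 0.73) and the 3 tested B cell markers all negative (median -1.22), none at an unadjusted p under 0.05 by edgeR. Summed over all listed genes, tested or not, T cell and B cell markers were at 2.03 to 4.01 against 0.562 to 4.24 CPM and 0.0264 to 1.86 against 0.360 to 4.51 CPM in Bach2KO and Bach2WT mice. Of 8 duct markers 6 were tested, 3 positive and 3 negative, with Krt7 (0.57, edgeR adjusted p = 0.627) at an unadjusted p under 0.05, and all 8 summed to 85.9 to 135 CPM in Bach2KO and 109 to 154 CPM in Bach2WT mice. Of 4 tested adipocyte markers 3 were negative, with Plin1 at -4.57 (edgeR adjusted p = 0.367), and the sum over the 6 listed genes was 2.06 to 5.58 against 0.893 to 11.1 CPM. The Plin1 estimate rests on few counts, 14, 0, 0 and 0 in Bach2KO and 101, 105, 44 and 14 in Bach2WT mice. Over these lists the median r with the islet profile ran from -0.40 for B cell markers to 0.28 for endothelial markers. Their part in the islet values was not tested. With the genes above 1% of the counts in every mouse, mostly digestive enzymes, taken out of the library total, the 9 islet genes made up 0.632% ± 0.586 of the rest in Bach2KO and 0.577% ± 0.661 in Bach2WT mice (SD, n = 4 each).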

How the data were processed

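RNA-seq of whole pancreas covered 8 mice, 4 per genotype, at 72299745 to 172029360 counts on genes. Poly-A mRNA libraries were sequenced as paired-end reads. The submitters' processing notes name fastp, HISAT2 2.2.1, featureCounts 2.0.6 and mm39, while the gene annotation and the handling of strand are not given in the sources used here. The authors deposited 1 table with unnormalized counts, a signal made by dividing each count by 1 size factor per library, and FPKM values, which are that signal divided by gene length and a common constant. The authors' comparison of the genotypes, deposited as log2 fold change, p-value and adjusted p-value per gene, was not used.

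Counts were fitted in edgeR 4.0.16 (TMM, filterByExpr, quasi-likelihood test, all 8 mice, no covariate), with p-values adjusted by Benjamini-Hochberg over all 12820 tested genes and a threshold of 0.05. Sex (adjusted for genotype) and the interaction of both were tested likewise. Log2 CPM used a prior count of 2. Ratios, levels and correlations per mouse were tested with two-sided exact permutations in scipy 1.17.1. Other settings were DESeq2 1.42.0, RLE normalization, totals that omit the digestive genes, an unfiltered table, a minimum of 10 counts per mouse, a sex covariate, the replicate block, limma 3.58.1 on log2(FPKM + 1) and log2(FPKM + 0.1), and leaving out each mouse. Leaving out Bach2KO 3 and Bach2WT 4 together was added after seeing the data. The procedure was tested on simulated data.

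The members and the gene lists were chosen with earlier results of these data known. Named genes are the members, the 10 genes most like their mean profile, the smallest p-values of each list, and further list genes chosen after their values were seen. Each mouse was taken as 1 replicate. Some genes of the lists are counted but not reported here.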

Additional observations from a re-analysis of the deposited data

Results flagged for a closer look

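The ratio of Pyy to Ins2 in 1 wild-type mouse stood apart from its group. It was 2.25% of Ins2 FPKM in Bach2WT mouse 1 and 1.08%, 1.12% and 1.07% in Bach2WT mice 2, 3 and 4. On the log2 scale the gap between mouse 1 and its nearest neighbour took 0.931 of the range of the 4 mice, above Dixon's critical value at the 95% level. Of 34 groups of 4 mice examined this way it was the single one, where chance gives about 1 in 20.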

How the results depend on the processing

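No member passed the adjusted threshold for genotype in any fit, and the smallest adjusted p was 0.205 (Gcg, edgeR without a filter on low counts). The log2 fold changes of Gcg, Ppy and Pyy were positive in all fits. The unadjusted p of Gcg ran from 0.00175 without the filter to 0.134 without Bach2KO 3, and that of Ppy from 0.0152 without the filter to 0.221 without Bach2KO 1. Over all genes, 1 was called higher and 0 lower by edgeR (957 at an unadjusted p under 0.05), whereas DESeq2 called 52 and 23 and the fit without a filter 55 and 18. The number called higher was 0 with at least 10 counts in every mouse, with sex as a covariate, with limma on log2(FPKM + 1), without each single mouse (0 to 0) and without Bach2KO 3 and Bach2WT 4. The cause was not tested.

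Mice with the same number in both genotypes shared the number and the sex, and the labels give no other link between them. Within a sex the pairing was thus set by number alone. The deviations of mice 1 to 4 correlated at 0.21, -0.03, -0.04 and -0.05 with those of the same number. Between mice of unlike number the correlations ran from -0.16 to 0.11. With the replicate block, 0 genes were called higher and the log2 fold change of Ins2 was 0.24, and the exact p of the ratios to Ins2 was 0.125 for Gcg and Ppy, the smallest that 4 pairs allow, and 0.25 for Pyy. The ratio was higher in the knockout mouse in 4 of 4 pairs for Gcg and Ppy and in 3 of 4 for Pyy. The sign of Ins2 also turned with sex as a covariate (0.092), with limma at both pseudocounts (0.12 each) and without Bach2KO 3 and Bach2WT 4 (0.28).

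Leaving out each mouse in turn moved the genotype log2 fold changes between -1.50 and 1.12 for Ins1, -1.06 and 1.30 for Ins2, 0.98 and 1.70 for Gcg, -0.11 and 0.83 for Sst, 0.87 and 1.95 for Ppy, 0.47 and 1.80 for Pyy, -0.50 and 1.21 for Iapp, -0.23 and 1.13 for Chga, and -0.065 and 0.83 for Chgb. The sex differences ranged from 0.51 to 1.96 for Ins1, 0.40 to 1.81 for Ins2, -1.04 to 0.15 for Gcg, -0.57 to 0.58 for Sst, -1.28 to 0.35 for Ppy, -0.74 to 0.75 for Pyy, -0.18 to 1.25 for Iapp, -0.46 to 0.89 for Chga and -0.82 to 0.38 for Chgb. Without a filter on low counts the sex difference passed the threshold for Ins1 (1.56, edgeR adjusted p = 1.90e-15), Ins2 (1.40, 1.51e-12) and Iapp (0.85, 0.00275). That fit called 152 of 21434 genes (0.709%). Its SE was 0.178 for Ins1, 0.176 for Ins2 and 0.193 for Iapp, against 0.701, 0.662 and 0.628 with the filter, while the differences hardly moved. The reason for the smaller SE was not tested. By DESeq2 the adjusted p for sex was 0.790 for Ins1, 0.756 for Ins2 and 0.912 for Iapp. The interaction of Gcg, 0.0015 as reported, was -0.0057 without the filter.

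In the order of levels, the log2 difference of Iapp over Sst ranged from -0.050 to 0.14 with 1 mouse left out. With 1 mouse left out, Chga over Pyy (0.64 to 0.97) passed the threshold only without Bach2KO 2 or Bach2KO 4. Ppy over Chgb (1.43 to 1.83) passed it only without Bach2KO 2, Bach2KO 4 or Bach2WT 3. Correlations with Ins2 ranged from 0.602 to 0.809 for Gcg, 0.627 to 0.747 for Ppy, 0.699 to 0.823 for Pyy, 0.737 to 0.880 for Chgb and 0.788 to 0.944 for Sst. With 1 mouse left out, the adjusted p (exact permutation) was above 0.05 for Sst without Bach2KO 3 (0.0783), for Chgb without Bach2KO 3, Bach2KO 4, Bach2WT 1 or Bach2WT 3 (0.0664 to 0.0848) and for Pyy without these 4 or Bach2WT 4 (0.0664 to 0.119), while that of Gcg was below it without Bach2WT 4 (0.0370) and Ppy without Bach2KO 1 (0.0401). After subtraction of genotype means r was 0.807 for Gcg and 0.780 for Ppy, both past the threshold, and without Bach2KO 3 and Bach2WT 4 it was 0.885 for Gcg, 0.795 for Ppy and 0.669 for Pyy, the last one no longer past it. The mean share of the 9 genes was 0.604% with the digestive genes taken out of the total. The comparisons rest on 4 mice per genotype and an SD of 1.11 to 1.56 on the log2 scale within genotypes.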
